A study of Mus musculus with 4 samples.

Results

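Collagen genes were followed in the diencephalon of young mice reared with or without light. A gene was a member if its symbol is Col, a number, the letter a and a number, and if an array probe carries one of its RefSeq accessions. This gave 42 genes with 70 probes, out of 44 such symbols in RefSeq. Col6a3 and Col12a1 had no matched probe and were not analysed here. Of the 42 genes, 37 gave a signal that could be tested, among 21426 genes tested in all. Tissue labelled thalamus and hypothalamus was taken at postnatal day 14. The dark-reared group came from dams that were moved under an opaque cover shortly before birth, and the pups stayed in darkness with dim red light for care until sampling. The control group lived in standard cages on a daily cycle of light and dark. The labels give no strain, genotype, sex or number of animals per sample, and name no other treatment. Each group had 2 samples called biological replicates, each on its own one-colour array, and the comparison asks what darkness from birth does to expression there.

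Collagens are proteins of 3 chains wound into a triple helix, and they form the fibrils and sheets of the extracellular matrix. In the brain, fibril-forming collagens are made mainly by fibroblasts of the meninges and around larger vessels, and type IV collagen lies in the basement membranes of vessels and under the pia. Other family members sit on fibril surfaces or span the membrane of cells, neurons among them. Collagen RNA in a block of brain tissue therefore depends on how much covering and vessel tissue comes with it. In such bulk samples fewer cells of a type and less RNA per cell cannot be told apart.

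Values are given in log2 after subtracting the 75th percentile of each array, so that 0 marks this percentile and a step of 1 is a doubling. Signals well above background were given by 65.9% to 73.3% of the 41174 probes per array, the fewest in control 2, and no spot was saturated. The lowest value called well above background was -4.45 in control 2, against -5.20 to -5.05 on the other arrays. A value that failed in control 2 could thus have passed on another array. Of 12 thalamus markers 12 were measured on all 4 arrays, and of 15 hypothalamus markers 8 were tested, all of them on all 4 arrays. Otp and Sim1, transcription factors of hypothalamic neurons, were not well above background on any array. Marker levels of both regions differed between the arrays. The thalamus markers deviated from their 4-array means by -0.95 and 0.23 on average in dark-reared samples 1 and 2, and by 1.04 and -0.32 in controls 1 and 2. Hypothalamus markers deviated by -1.12 and 0.19 in the dark-reared samples and by 1.15 and -0.22 in the controls. Hcrt, the one of largest difference, had -3.16 and -2.13 in the dark-reared pair, against 2.15 and -3.65 in controls. Pmch, which was not tested, had 2.69 in control 1 and at most -4.47 on the other arrays. In 2 of the 8, Irs4 and Pomc, both dark-reared values lay below both controls, as in 9.58% of all genes. Irs4 had -2.45 and -2.94 in the dark-reared pair, against -1.85 and -1.94 in controls, without passing. Its unadjusted p in limma was 0.0243, and 1.25% of all genes were under 0.05. Pomc had -0.02 and -0.18 in the dark-reared pair, against 0.28 and 0.09 in controls. Dark-reared 2 and control 2 shared slide 3, and the other arrays were on slides of their own, so the difference between those 2 samples is given beside the group difference. The smallest p of an exact permutation test (two-sided) in this design is 0.333. Nothing says that replicates came from separate litters, so p-values measure the spread between these samples. Thalamus markers had 1 gene on the higher and 11 on the lower side in dark-reared samples (median -0.68), and hypothalamus markers 1 and 7 (median -0.88), 0 past the threshold in either list.

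None of the collagen genes differed between dark-reared and control tissue by the test used. In limma's fit over all genes the Benjamini-Hochberg adjusted p was 1 for all 37 tested collagen genes, and the share of all genes past the threshold of 0.05 was 0.00%. The lowest unadjusted p among the collagens was 0.108, for Col5a2. None of the 37 had an unadjusted p under 0.05, where 1.25% of all genes did. Of the 37 genes, 17 were on the higher and 20 on the lower side in dark-reared samples, with a median difference of -0.02, beside -0.0065 over all genes. Of the 33 above background on all 4 arrays 14 were on the higher side, with a median of -0.04, beside -0.0081 over all such genes. Both dark-reared values lay above both controls in 2 collagens, Col5a2 and Col23a1, where 9.54% of all genes did so. Both lay below both controls in 0 collagens, against 9.58% of all genes. None differed by at least 2-fold without overlap, as 1.20% of all genes did. With normexp background correction 1 collagen did so, and 1 had an unadjusted p under 0.05, which was Col24a1 (difference -1.005, adjusted p = 1 in limma). With an array left out, 1 sample faces 2, so a lack of overlap there cannot be set beside these shares. Within slide 3 the sign was opposite to the group difference in 17 of the 37 genes.

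**Figure D1:**
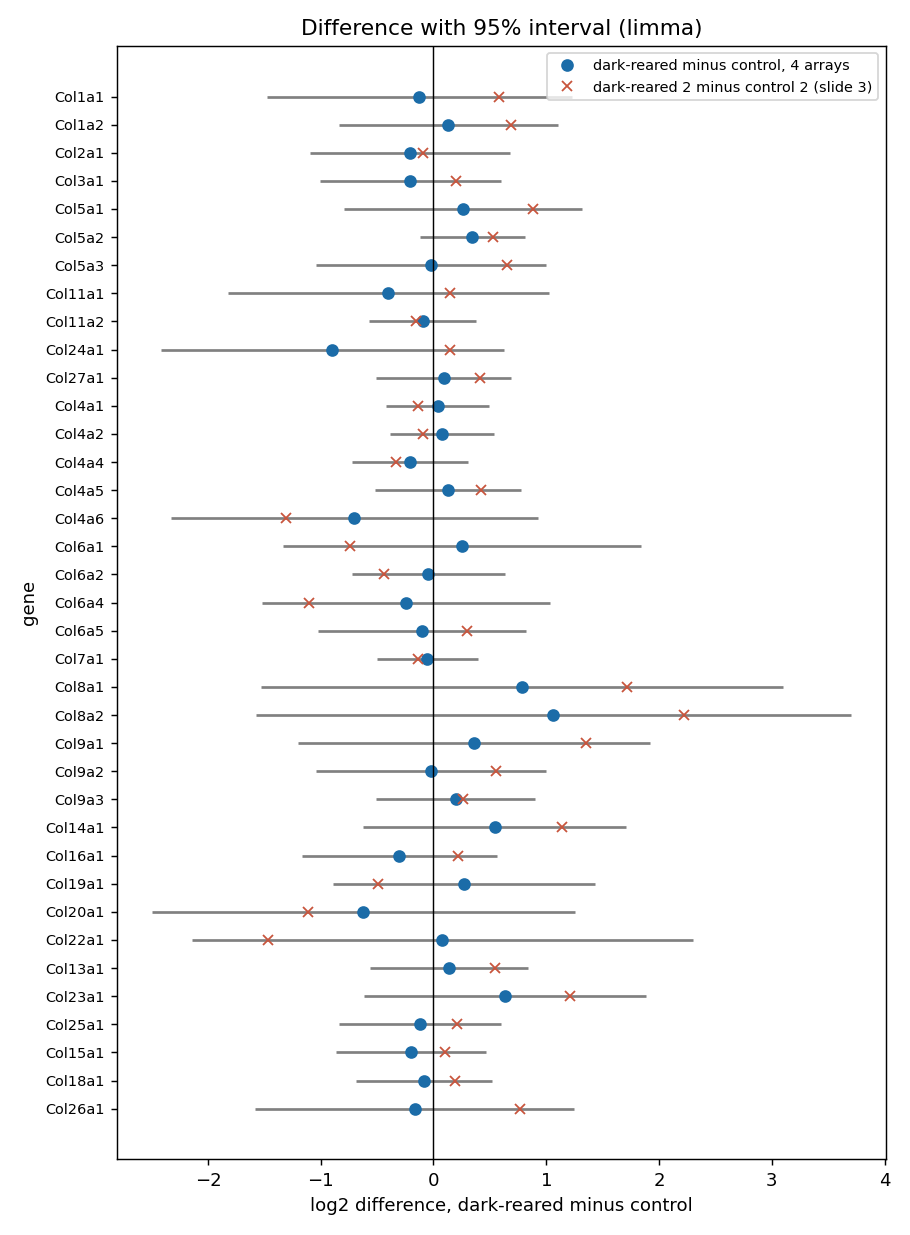
Log2 difference of each tested collagen gene, dark-reared minus control (circles, with limma's 95% interval as a grey line), and the difference between dark-reared 2 and control 2 on slide 3 (crosses). All 37 intervals include 0, and 17 crosses lie on the other side of 0 from their circle.

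Collagens varied more between the 4 arrays than most genes. The gap between the highest and the lowest array had a median of 0.85 in log2 for the collagens, beside 0.42 for all genes tested. It was at least 1 in 15 collagens (40.5%), beside 15.9% of all genes. The gap ran from 0.21 for Col4a1 to 2.61 for Col8a2. The arrays did not contribute evenly: control 2 was the lowest array for 12 collagens (32.4%, against 17.5% of all genes), and control 1 was the highest for 15 (40.5%, against 23.8% of all genes).

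**Figure D2:**
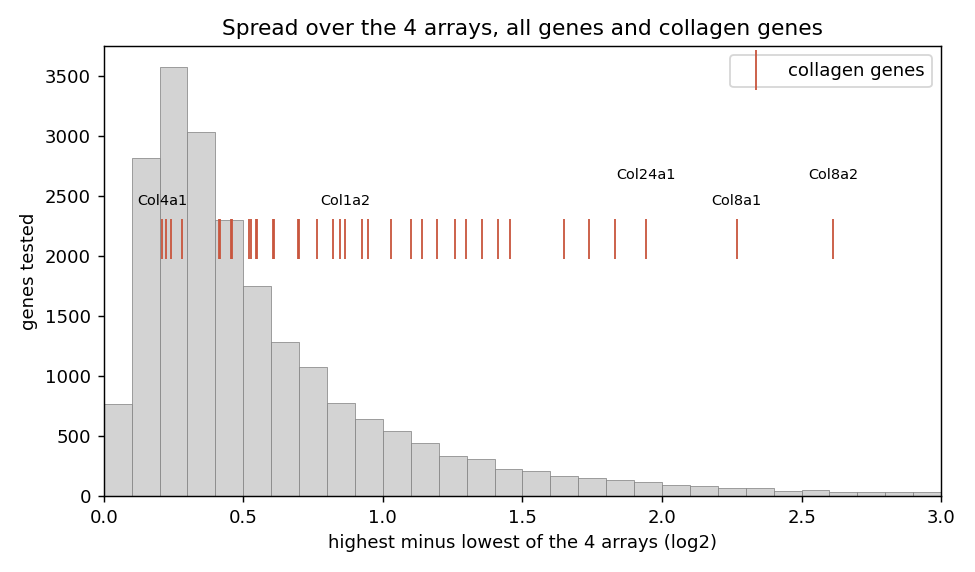
Gap between the highest and the lowest of the 4 arrays in log2 (horizontal axis) as a histogram of all tested genes in grey, cut at 3, with the 37 collagen genes as ticks. The ticks reach from 0.21 for Col4a1 to 2.61 for Col8a2, and 15 of them lie at 1 or more.

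**Figure D3:**
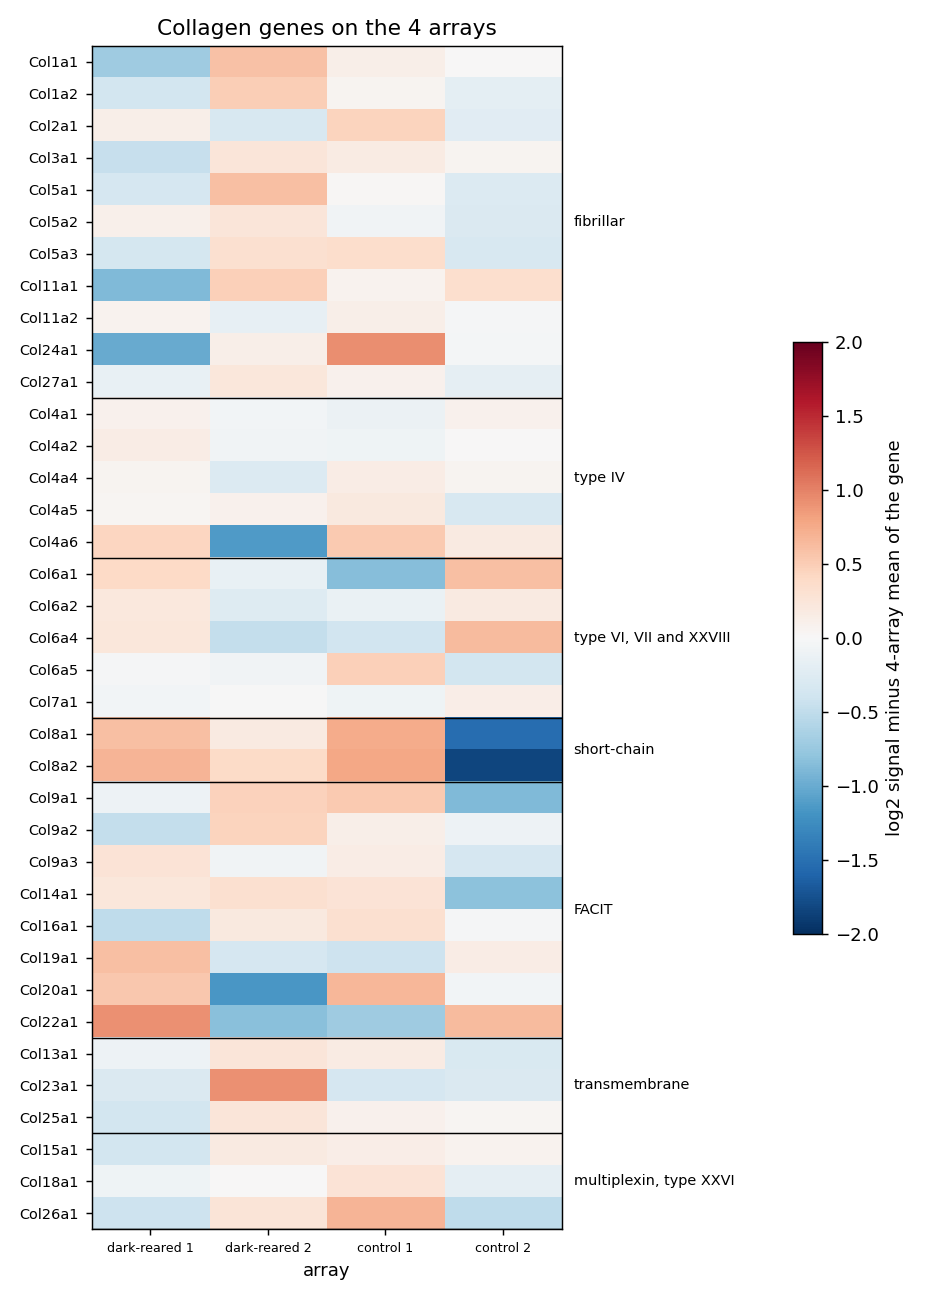
Colour map of the 37 tested collagen genes, grouped by structural class, on the 4 arrays. Red is above and blue below the mean of the 4 arrays for that gene in log2; Col8a1 and Col8a2 are deep blue in control 2, and most fibrillar genes are blue in dark-reared 1.

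The pair that moved most was Col8a1 and Col8a2, which encode the chains of type VIII collagen, a short-chain collagen that forms lattices in vessel walls and under the corneal endothelium. Their promoters are shown because both genes followed the same course over the arrays. The runs are the 250 bases before the start site, 5′ to 3′ on the strand of the gene, from RefSeq on GRCm38.p6, at chr16:57754738-57754987 (minus strand) for Col8a1 and chr4:126286544-126286793 (plus strand) for Col8a2. Capitals mark the GC box GGGCGG, the CTC box CCCTCCCC, the CCAAT box CCAAT and the TATA box TATAAA, each searched on both strands.
Col8a1: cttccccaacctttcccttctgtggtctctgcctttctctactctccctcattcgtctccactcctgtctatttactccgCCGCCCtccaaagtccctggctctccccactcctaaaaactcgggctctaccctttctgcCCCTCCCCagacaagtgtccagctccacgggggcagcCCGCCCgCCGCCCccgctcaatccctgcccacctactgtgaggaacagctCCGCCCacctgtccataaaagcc
Col8a2: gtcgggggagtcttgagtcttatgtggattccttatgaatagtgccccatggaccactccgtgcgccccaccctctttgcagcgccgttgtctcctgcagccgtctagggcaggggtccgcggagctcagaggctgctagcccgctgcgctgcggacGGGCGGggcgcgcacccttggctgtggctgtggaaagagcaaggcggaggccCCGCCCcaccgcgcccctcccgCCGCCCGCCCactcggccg
Each window holds 4 GC boxes, of which 2 overlap in Col8a2, and Col8a1 holds 1 CTC box. Among all 32851 promoter windows of this length 32.7% hold a GC box and 9.7% a CTC box. Neither of these windows holds the CCAAT or TATA letters.

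Col8a1 had log2 signals of 2.46 and 2.05 in dark-reared samples 1 and 2, against 2.60 and 0.33 in controls 1 and 2. Control 2 thus stood far below the other arrays. The group difference was 0.78 with a standard error of 0.83 and a 95% interval from -1.53 to 3.103 (limma). Col8a2 had -0.91 and -1.20 in the dark-reared pair, against -0.81 and -3.43 in controls, a difference of 1.06 or 2.09-fold, with an interval from -1.58 to 3.70. Control 2 was again alone at the low end, and the groups overlapped. A second Col8a1 probe gave -3.30 and -3.66 in the dark-reared pair, against -3.22 and -6.31 in controls, and was not well above background in control 2. Without control 2 the differences took the other sign, at -0.35 for Col8a1 and -0.24 for Col8a2. Without control 1 they were 1.92 and 2.37. Of all 666 pairs of collagen profiles, 53 lay closer to each other than this pair, whose root mean square gap was 0.19.

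Choroid plexus markers moved with the type VIII chains. Their mean deviation was 0.80 and 0.38 in dark-reared samples 1 and 2, against 0.87 and -2.05 in controls 1 and 2. Of the 10 markers 9 were tested, 7 of them well above background on all 4 arrays. Control 2 was the lowest array in 8, as in 17.5% of all genes. The mean level of the list was 0.01 and -0.41 in the dark-reared samples, against 0.09 and -2.83 in the controls. Ttr, the thyroxine carrier secreted by this epithelium, had 2.65 and 1.58 in the dark-reared pair, against 2.51 and -1.77 in controls. Cldn2, a tight junction protein of the same epithelium, had -1.74 and -2.55 in the dark-reared pair, against -1.96 and -6.68 in controls, and was not well above background in control 2. Within slide 3 the choroid median was 2.44. Of the list 8 genes were on the higher and 1 on the lower side in dark-reared samples, 0 past the threshold. The 8 include Cldn2 and Slc4a5, which failed in control 2 and passed the filter only through the dark-reared pair. The part of choroid plexus content in the Col8a1 and Col8a2 values was not tested.

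**Figure D4:**
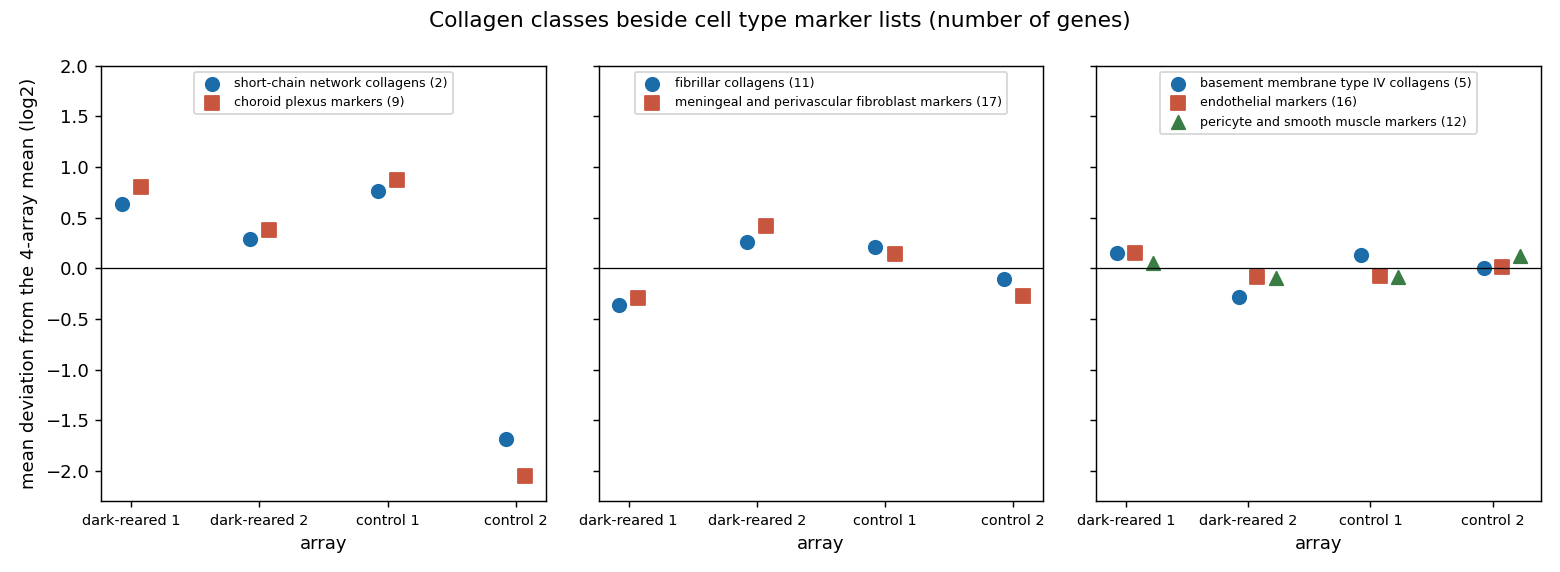
Mean deviation from the 4-array mean in log2 for 3 collagen classes (blue circles) and marker lists (red squares and green triangles) on each array, with the number of genes in brackets. Short-chain collagens and choroid markers are both lowest in control 2 (-1.68 and -2.05). Fibrillar collagens and fibroblast markers are lowest in dark-reared 1 (-0.36 and -0.29), with fibroblast markers nearly as low in control 2 (-0.27).

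Fibrillar collagens, the rope-like collagens of connective tissue, were low in dark-reared 1 and high in dark-reared 2. All 11 members of the class were tested, 4 on the higher and 7 on the lower side in dark-reared samples, with a median of -0.10. In 7 of them dark-reared 1 was the lowest array, as in 28.4% of all genes. In 7 dark-reared 2 was the highest, as in 28.9% of all genes. The mean deviation of the class was -0.36 and 0.26 in the dark-reared samples, against 0.21 and -0.10 in the controls. The 2 dark-reared samples thus lay at opposite ends with both controls between them. Within slide 3 the median was 0.41.

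Type I collagen, the main fibril of skin, bone and meninges, is built from the products of Col1a1 and Col1a2. Col1a1 had -1.09 and 0.21 in the dark-reared pair, against -0.26 and -0.37 in controls. Its difference was -0.12 with an interval from -1.47 to 1.22, and 0.58 within slide 3. The other detected probes of Col1a1 also placed dark-reared 1 lowest and dark-reared 2 highest, although 1 of the 3, not well above background in control 2, gave a difference of the other sign, 0.26. Col1a2 had 2.40 and 3.27 in the dark-reared pair, against 2.83 and 2.58 in controls, a difference of 0.13 with an interval from -0.84 to 1.10. The order of the lowest and the highest array was that of Col1a1. Col3a1, which encodes the fibril of elastic tissues and vessel walls, had -0.25 and 0.45 in the dark-reared pair, against 0.36 and 0.26 in controls. Its difference of -0.21 had an interval from -1.01 to 0.60, and the same arrays stood at the ends.

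The promoters of Col1a2 and Col3a1 are shown because these genes shared their lowest and highest array with Col1a1. They are the 250 bases before the start site on the plus strand, from RefSeq on GRCm38.p6, at chr6:4505368-4505617 and chr1:45311288-45311537, with the same capitals.
Col1a2: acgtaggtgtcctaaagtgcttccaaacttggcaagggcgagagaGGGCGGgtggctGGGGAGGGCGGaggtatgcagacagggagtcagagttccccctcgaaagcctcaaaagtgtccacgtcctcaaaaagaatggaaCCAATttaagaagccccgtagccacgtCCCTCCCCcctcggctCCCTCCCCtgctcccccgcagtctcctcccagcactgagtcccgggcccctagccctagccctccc
Col3a1: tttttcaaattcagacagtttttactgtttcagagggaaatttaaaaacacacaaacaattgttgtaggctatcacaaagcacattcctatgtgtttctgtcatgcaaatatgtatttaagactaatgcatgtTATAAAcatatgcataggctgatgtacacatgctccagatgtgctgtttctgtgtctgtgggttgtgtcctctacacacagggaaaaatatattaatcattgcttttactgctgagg
The Col1a2 window holds 1 CCAAT box, 2 GC boxes and 3 CTC boxes, one of which overlaps a GC box, at a G and C content of 62%. The Col3a1 window holds 1 match to the TATA box letters, near the middle of the window, and none of the other letters, at 35.2%. A CCAAT box is found in 33.8% and a TATA box in 12.4% of all windows of this length. In all, 38 windows of 35 collagen genes were found, of which 57.9% hold a GC box and 26.3% a CTC box. A CCAAT box is found in 34.2% of them and a TATA box in 13.2%, near the shares of all windows.

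**Figure D5:**
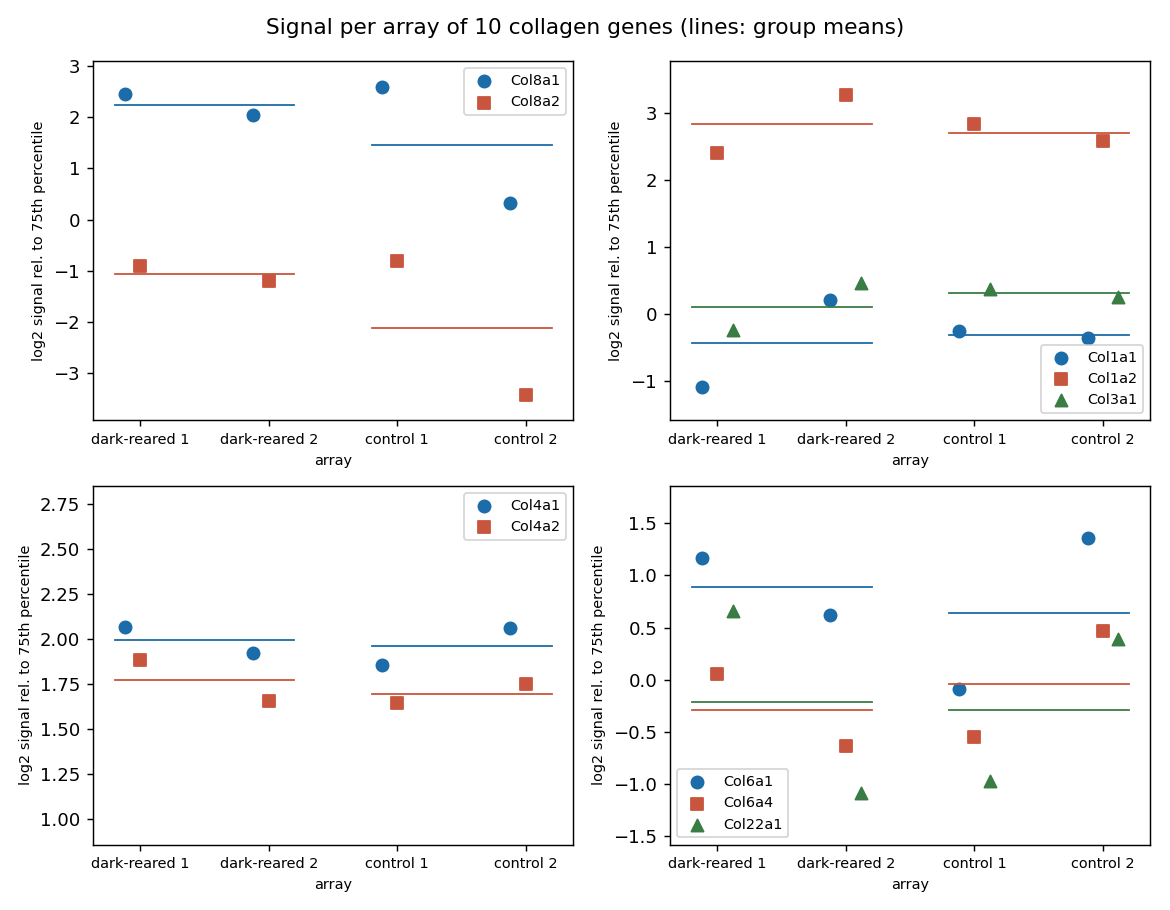
Log2 signal relative to the 75th percentile on each array for 10 collagen genes in 4 panels, each with its own vertical range; horizontal lines are the group means of 2 arrays. Control 2 is low for Col8a1 (0.33) and Col8a2 (-3.43), dark-reared 1 is low for Col1a1 (-1.09), and Col4a1 stays between 1.86 and 2.07.

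The minor fibrillar chains did not all follow type I. Col5a2, a chain of type V collagen that starts fibrils, was the collagen with the lowest p: its values were -2.51 and -2.36 in the dark-reared pair, against -2.67 and -2.89 in controls. The groups did not overlap, and the difference of 0.35, or 1.27-fold, had a standard error of 0.17 and an interval from -0.12 to 0.81. Its partner Col5a1 differed by 0.26 on the brighter probe and by -0.97 on the other, which had -3.93 and -4.11 in the dark-reared pair, against -3.13 and -2.96 in controls. That second probe, named after its values were seen, had the lowest unadjusted value of all collagen probes when every probe was tested with limma, 0.00385, and a Benjamini-Hochberg adjusted value of 1. Col11a1, a chain that limits fibril width in cartilage, had -1.55 and -0.19 in the dark-reared pair, against -0.61 and -0.34 in controls, a difference of -0.40. Its partner Col11a2 was steady, at 0.92 and 0.67 in dark-reared samples and 0.96 and 0.83 in controls. Col24a1, a fibrillar chain of bone and of part of the cortical neurons in mice, had the lowest difference of all collagens, -0.90 with an interval from -2.42 to 0.62. Its values were -3.78 and -2.66 in the dark-reared pair, against -1.84 and -2.80 in controls. Control 1 was thus the highest and dark-reared 1 the lowest array, the order that the thalamus and hypothalamus markers had on average. Col2a1, Col5a3 and Col27a1 differed by -0.21, -0.02 and 0.09.

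Markers of meningeal and perivascular fibroblasts were highest on average in dark-reared 2, as type I collagen was. They were similarly low in dark-reared 1 and control 2. Their mean deviation was -0.29 and 0.42 in dark-reared samples 1 and 2, against 0.14 and -0.27 in controls. Of 21 markers 17 were tested, all of them above background on all 4 arrays. In 13 of these dark-reared 2 was the highest array, as in 28.9% of all genes. Dark-reared 1 was the lowest array in 9 (28.4% of all genes) and control 2 in 5 (17.5% of all genes). The mean level was -0.78 and -0.06 in the dark-reared samples, against -0.34 and -0.76 in the controls. Slc22a6, an organic anion transporter of the leptomeninges, had -0.73 and -0.05 in the dark-reared pair, against -0.84 and -1.69 in controls, without passing (difference 0.88, standard error 0.41). Aldh1a2, which makes retinoic acid in the meninges, had -3.14 and -0.66 in the dark-reared pair, against -2.09 and -2.06 in controls. Not all members followed this course. Spp1, with a difference of -0.62, had -2.84 and -1.82 in the dark-reared pair, against -0.77 and -2.64 in controls. Foxc1 and Slc22a8 were nearly flat, with gaps between arrays of 0.09 and 0.06. Of the list 10 genes were on the higher and 7 on the lower side in dark-reared samples, with a median of 0.07, and 0 passed. Within slide 3 that median was 0.64, without dark-reared 1 it was 0.39, and without dark-reared 2 it was -0.18. The part of meningeal content in the fibrillar values was not tested.

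Collagen-binding matrix proteins differed from each other in which array was high. Of 13 genes 11 were tested, 8 on the higher and 3 on the lower side in dark-reared samples, with a median of 0.35, and 0 passed. Over the 10 genes above background on all 4 arrays the median was 0.27. Fmod and Ogn, small proteoglycans that bind fibrils, differed by 0.62 and 0.56, and Tnxb, a tenascin of connective tissue that was not well above background in control 2, by 0.58. Bgn, another such proteoglycan, differed by -0.62, with -1.03 in dark-reared 2 as its lowest value. The groups did not overlap in 5 of the 11. In 4 of them, Fmod, Ogn, Postn and Fbln1, dark-reared samples were above controls, as in 9.54% of all genes, and in 1, Sparc, below, as in 9.58%.

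Type IV collagen of the vessel basement membrane was the steadiest part of the family. Col4a1 had 2.07 and 1.92 in the dark-reared pair, against 1.86 and 2.06 in controls, a difference of 0.04 with an interval from -0.42 to 0.49. Col4a2, which encodes its partner chain, had 1.88 and 1.66 in the dark-reared pair, against 1.64 and 1.75 in controls, a difference of 0.08 with an interval from -0.38 to 0.53. The 4 arrays spanned 0.21 and 0.24, and 18.4% and 23.6% of all genes spanned less. The profiles of the pair were 0.05 apart in root mean square, and 1 of the 666 collagen pairs was closer (Col15a1 and Col25a1). This gap is small for any pair of genes that vary little, and Col7a1, also steady, lay 0.08 from Col4a1.

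Col4a1 and Col4a2 start head to head on chromosome 8, with annotated start sites 21 bases apart. Windows that run from 250 bases before to 50 bases after each start site share 78 bases. That stretch includes bases after the start sites and is not upstream sequence common to both genes. From that shared stretch 30 bases are shown, at chr8:11312790-11312819 on GRCm38.p6 from RefSeq, read on the plus strand, which is the strand of Col4a2.
Col4a1 and Col4a2: ccCCCTCCCCtcggcagtgcgcGGGCGGcg
The capitals are 1 CTC box and 1 GC box, the letters searched above.

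The other type IV chains were less even. Col4a6, a chain of smooth muscle basement membranes, had -2.13 and -3.68 in the dark-reared pair, against -2.03 and -2.37 in controls, a difference of -0.70 with an interval from -2.33 to 0.92. Dark-reared 2 was low alone, and the other detected probe differed by 0.19, the other sign. Col4a5, its neighbour on the X chromosome, differed by 0.13 and was not well above background in control 2. The start sites of that pair are 1343 bases apart, and their profiles were 0.71 apart. Col4a4, a chain of the kidney filter membrane, differed by -0.21. Its sign held in all 17 other settings, as did that of Col23a1 alone among the rest, and neither passed in any of them. Col4a3, another chain of that membrane, was well above background in dark-reared 1 and control 1 only, at -4.86 and -5.05, and was not tested.

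Vessel markers had a median gap between arrays of 0.39 for endothelial and 0.32 for pericyte and smooth muscle markers, beside 0.42 for all genes. Endothelial markers deviated by 0.15 and -0.08 on average in the dark-reared pair, against -0.08 and 0.01 in controls. Of 16 tested, 9 were on the higher and 7 on the lower side in dark-reared samples, with a median of 0.04, and 0 passed. Ocln, a tight junction protein, had the largest difference, 0.53 with a standard error of 0.20. Pericyte and smooth muscle markers deviated by 0.06 and -0.10 in the dark-reared pair, against -0.08 and 0.12 in controls. Of the 12 tested, 5 were on the higher and 7 on the lower side, with a median of -0.01. Partners of type IV collagen in the basement membrane had a median of 0.01 over 13 tested genes, 8 higher and 5 lower, 0 past the threshold. Lamc3, a laminin chain, had the largest difference there, -1.54, with dark-reared 2 below background at -7.17. The second was Lama3, at -0.89.

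Type VI collagen genes had a different order of the arrays from type I. Col6a1, which encodes a core chain of type VI collagen around cells, had 1.16 and 0.62 in the dark-reared pair, against -0.09 and 1.36 in controls. The highest value was in one control and the lowest in the other, and the difference of 0.26 had an interval from -1.33 to 1.84. Its partner Col6a2 had -1.07 and -1.53 in the dark-reared pair, against -1.42 and -1.09 in controls. Col6a4, an alternative chain of the same type, had 0.06 and -0.64 in the dark-reared pair, against -0.55 and 0.46 in controls. For all 3, dark-reared 1 and control 2 lay above dark-reared 2 and control 1, as in 25.3% of all genes. A second Col6a4 probe differed by 0.66 with another order of the arrays, where the first differed by -0.25. Col7a1, the anchoring fibril of skin, was steady, at 0.16 and 0.21 in dark-reared samples and 0.13 and 0.35 in controls. Col6a5 differed by -0.10 and was not well above background in control 2. Col6a6 and Col28a1 were not well above background on any array.

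Collagens that sit on fibril surfaces, called FACIT collagens, had no common course. Of 8 tested, 5 were on the higher and 3 on the lower side in dark-reared samples, with a median of 0.14. Col9a1 and Col14a1, both on the higher side, failed in control 2 and passed the filter only through the dark-reared pair. Over the 6 genes above background on all 4 arrays the median was 0.03. Col22a1, found at tissue junctions such as that of muscle and tendon, had 0.66 and -1.08 in the dark-reared pair, against -0.97 and 0.39 in controls. As for Col6a1, Col6a2 and Col6a4, dark-reared 1 and control 2 lay above dark-reared 2 and control 1, with a wider gap. The Col22a1 difference was 0.08 with an interval from -2.15 to 2.30. Col19a1, which in mice takes part in inhibitory synapse formation, had -1.02 and -1.97 in the dark-reared pair, against -2.05 and -1.48 in controls. Col20a1 had -0.75 and -2.46 in the dark-reared pair, against -0.63 and -1.34 in controls, a difference of -0.62. Its nearest collagen profile was that of Col4a6, at a root mean square gap of 0.15.

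Type IX collagen decorates cartilage fibrils, and its chains differed in course. Col9a1 had -3.70 and -3.12 in the dark-reared pair, against -3.06 and -4.47 in controls, and was not well above background in control 2. Col9a2 had -0.0035 and 0.92 in the dark-reared pair, against 0.60 and 0.37 in controls, with type I collagen's arrays at the ends. Col9a3 had 1.44 and 1.09 in the dark-reared pair, against 1.31 and 0.83 in controls. Their differences were 0.36, -0.02 and 0.20, and the gaps between the 3 profiles were 0.47 to 0.48, near the 0.49 that was the median of all collagen pairs. Col14a1, which binds fibrils in loose connective tissue, had -4.62 and -4.53 in the dark-reared pair, against -4.57 and -5.67 in controls, where control 2 was not well above background. Its difference of 0.54 had an interval from -0.62 to 1.71. Col16a1, a chain of vessel wall and skin matrix, had 0.97 and 1.67 in the dark-reared pair, against 1.79 and 1.46 in controls, a difference of -0.30.

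The membrane-spanning collagens that were tested were highest in dark-reared 2, as 28.9% of all genes were. This held for all 3 tested, Col13a1, Col23a1 and Col25a1. For Col13a1 control 1 was close, at -2.74 against -2.66 in dark-reared 2. Col23a1 had -2.15 and -0.95 in the dark-reared pair, against -2.21 and -2.16 in controls. Dark-reared 2 stood alone, and dark-reared 1 was above control 2 by less than the standard error of the difference, 0.45, so the lack of overlap rested on values close together. The difference was 0.63 or 1.55-fold, with an interval from -0.62 to 1.89, and 0.03 without dark-reared 2. Col13a1, found at the junction of nerve and muscle, and Col25a1, a neuronal collagen, differed by 0.14 and -0.12. Col17a1, a skin collagen, was above background in dark-reared 1 and control 1 only, at -3.77 and -4.28, and was not tested. Its lowest value on that probe was in dark-reared 2, at -5.30, against -4.91 in control 2.

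Among multiplexins, basement membrane collagens whose ends can be released as fragments, Col18a1 had 0.52 and 0.60 in the dark-reared pair, against 0.87 and 0.42 in controls. Its end fragment is endostatin, an inhibitor of vessel growth. The difference was -0.08 with an interval from -0.68 to 0.52. Col15a1 differed by -0.20. Col26a1, first described in testis and ovary, had 0.84 and 1.52 in the dark-reared pair, against 1.94 and 0.75 in controls, so both extremes were controls. Col10a1, the collagen of growth plates, gave no signal well above background on these arrays.

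Across the whole family, dark-reared 1 and control 2 were both below dark-reared 2 and control 1 in 17 of 37 collagens (45.9%, against 23.2% of all genes). They were both above in 7 (18.9%, against 25.3%). Dark-reared 1 was lowest and dark-reared 2 highest in 8 (21.6%, against 14.8% of all genes), which were Col1a1, Col1a2, Col3a1, Col5a1, Col9a2, Col11a1, Col15a1 and Col25a1. Chains known to share a trimer were compared as 10 pairs. Of these, 8 had profiles closer than the median of all pairs, the exceptions being Col11a1 with Col11a2 and Col4a5 with Col4a6. Among the 8, Col6a1 with Col6a2 and the type IX pairs lay near that median, with 42% to 48.8% of all pairs closer. Of 14 genes with several detected probes, 8 had 1 sign on all of them, and 6 did not (Col1a1, Col4a6, Col5a1, Col6a4, Col19a1 and Col27a1).

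Genes that make and modify collagen were even between the groups. Of 24 tested genes for biosynthesis and crosslinking, 12 were on the higher and 12 on the lower side in dark-reared samples, with a median of 0.0007, and 0 passed. Pcolce, an enhancer of procollagen cleavage, had the largest difference, 0.32 with a standard error of 0.20. Adamts14, a procollagen protease, differed by -0.27. The median gap between arrays in this list was 0.37, and 0.76 in the fibrillar collagens. Of 7 tested receptors 3 were higher and 4 lower, with a median of -0.04 and 0 past the threshold, and Ddr2, a receptor kinase for fibrillar collagen, differed by 0.44 with a standard error of 0.25. Of 9 tested genes for degradation 4 were higher and 5 lower, with a median of -0.07 and 0 past the threshold, and Timp3, an inhibitor of matrix proteases, differed by -0.27. Among matrix proteases Mmp8 and Mmp13, which cut fibrillar collagen, were not well above background on any array.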

How the data were processed

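Total RNA of 4 samples was hybridised to one-colour (Cy3) Agilent arrays. The deposited spot intensities are background-subtracted processed signals; the file headers name Feature Extraction 10.7.3.1 and the submitters' processing notes 10.7. The authors' deposited log2 values per probe, with a median of 6.84 on every array, were an alternative; their normalization was not stated there. Control spots and spots called outliers (79 to 103 per array) were left out, spots of a probe averaged, and the 75th percentile of each array subtracted in log2. Accessions were named through RefSeq symbols of GRCm38.p6; the array annotation is mm9. A probe entered the test if both arrays of either group had it well above background, and the brightest stood for a gene (21426 genes, 14328 named). The test was limma's (version 3.58.1, R 4.3.3; lmFit and eBayes), two-sided, with Benjamini-Hochberg adjustment across all genes and a threshold of 0.05, and was tested on simulated data. The signal over background and the number of arrays limit the precision. Alternatives were other normalizations, normexp with an offset of 50 (on median spot signals, the files holding no means, where the plan named means first), filters, probe choices, eBayes with trend, slide, replicate block and each array left out. Values on every array are given for the 16 collagens of highest mean signal, the 6 of largest difference each way, any past a threshold, and Col1a1, Col1a2, Col3a1, Col4a1 and Col4a2; of other lists up to 4 genes of largest difference, and a few named after their values were seen. Members and lists were chosen with earlier results of these data known. Trimer pairs and promoters were chosen after the values were seen.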

Additional observations from a re-analysis of the deposited data

How the results depend on the processing

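No collagen gene, and no gene in all, passed the adjusted threshold under any of the alternatives that give a test, and in limma 267 of all genes had an unadjusted p under 0.05. Quantile normalization, the deposited log2 values, outlier spots kept, no filter, the filter on all 4 arrays, every probe tested, eBayes with trend and robust, and the replicate block kept the sign of all collagens tested there. Fitting the replicate number as a block left the count of calls at 0 (the deviations of same-numbered samples correlated at -0.16 over all genes). The labels tie the numbers to no shared animal, litter or day, although the samples numbered 2 also shared slide 3.

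Within slide 3, a difference with no test, 17 of 37 took the other sign: Col11a1 (0.14), Col15a1 (0.099), Col16a1 (0.22), Col18a1 (0.19), Col19a1 (-0.49), Col1a1 (0.58), Col22a1 (-1.47), Col24a1 (0.15), Col25a1 (0.21), Col26a1 (0.77), Col3a1 (0.20), Col4a1 (-0.14), Col4a2 (-0.089), Col5a3 (0.65), Col6a1 (-0.74), Col6a5 (0.30) and Col9a2 (0.55). List medians there moved by more than the spread between replicates for all collagen genes (0.21), fibrillar (0.41), type VI, VII and XXVIII (-0.44) and transmembrane collagens (0.55), degradation (0.22), collagen-binding proteins (0.64), fibroblast (0.64), endothelial (-0.19), pericyte (-0.18), thalamus (0.35) and hypothalamus markers (0.54). Normexp with local backgrounds as given moved the median of all genes to -0.12 and gave 1 collagen at an unadjusted p under 0.05 and 1 at least 2-fold apart without overlap, against 0 of each. It turned Col11a2 (0.037), Col13a1 (-0.38), Col14a1 (-0.76), Col19a1 (-0.043), Col27a1 (-0.56), Col4a5 (-0.67), Col5a1 (-0.092), Col5a2 (-0.31), Col7a1 (0.025), Col9a1 (-0.47) and Col9a2 (0.071). The medians of type IV (-0.31), FACIT (-0.16) and transmembrane collagens (-0.33) and of collagen-binding proteins (-0.019) moved there too. With outlying local backgrounds replaced, 4 genes turned: Col11a2 (0.00075), Col4a2 (-0.017), Col5a3 (0.0072) and Col9a2 (0.046). Median normalization turned Col5a3 (0.0096) and Col9a2 (0.0079), and the mean of a gene's probes turned Col1a1 (0.016), Col5a1 (-0.36) and Col6a4 (0.20). The receptor median was 0.032 with replaced backgrounds, 0.0055 with the deposited values, 0.061 with the mean of probes and 0.051 with every probe tested. Except for arrays left out and probes averaged, the causes were not tested.

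With each array left out in turn, differences changed sign in Col11a1 (-1.08 to 0.28), Col11a2 (-0.22 to 0.025), Col13a1 (-0.095 to 0.37), Col14a1 (-0.0095 to 1.09), Col15a1 (-0.47 to 0.072), Col16a1 (-0.65 to 0.050), Col18a1 (-0.31 to 0.15), Col19a1 (-0.20 to 0.74), Col1a1 (-0.77 to 0.52), Col1a2 (-0.30 to 0.56), Col20a1 (-1.47 to 0.23), Col22a1 (-0.79 to 0.95), Col25a1 (-0.42 to 0.19), Col26a1 (-0.76 to 0.43), Col27a1 (-0.10 to 0.28), Col2a1 (-0.54 to 0.13), Col3a1 (-0.56 to 0.14), Col4a1 (-0.067 to 0.14), Col4a2 (-0.038 to 0.19), Col4a5 (-0.13 to 0.39), Col4a6 (-1.48 to 0.076), Col5a1 (-0.21 to 0.74), Col5a3 (-0.36 to 0.32), Col6a1 (-0.47 to 0.98), Col6a2 (-0.27 to 0.18), Col6a4 (-0.75 to 0.26), Col6a5 (-0.53 to 0.32), Col7a1 (-0.17 to 0.057), Col8a1 (-0.35 to 1.92), Col8a2 (-0.24 to 2.37), Col9a1 (-0.35 to 1.06), Col9a2 (-0.49 to 0.44) and Col9a3 (-0.046 to 0.44). When every probe was tested on all 4 arrays, 1 collagen probe had an unadjusted p under 0.05 in limma. With an array left out, counts of calls are not given, as a lone sample then faces a pair. Medians ran from -0.14 to 0.07 for all collagens, from -0.30 to 2.14 for short-chain collagens, from -0.18 to 0.39 for fibroblast markers, from -0.30 to 0.28 for fibrillar and from -0.091 to 0.30 for FACIT collagens, from 0.016 to 0.12 for receptors, from -0.27 to 0.074 for degradation, from -0.11 to 0.14 for endothelial, from -0.22 to 2.87 for choroid plexus, from -1.66 to 0.050 for thalamus and from -1.94 to -0.11 for hypothalamus markers. A lone sample is assumed there to vary like the other group.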
